A study of Mus musculus with 4 samples.

Results

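Scavenger receptors are cell-surface and lysosomal proteins that bind oxidized or acetylated lipoproteins, and 10 of their genes were followed in peritoneal macrophages with and without Dnmt1. The genes were Msr1 and Marco of class A, Cd36, Scarb1 and Scarb2 of class B, Cd68 of class D, Olr1 of class E, Cxcl16 of class G, Stab1 of class H, and Lrp1, a large endocytic receptor for lipoproteins. They were taken by gene symbol, and all 10 were found among the 13834 genes of the count table. All 10 were also among the 12542 genes with enough counts to be tested. The cells were thioglycolate-elicited peritoneal macrophages, washed from the abdominal cavity of 10-week-old mice 3 days after an injection of thioglycolate broth, which draws leukocytes into the cavity. RNA was sequenced from 2 Dnmt1fl/fl samples, whose Dnmt1 gene carries loxP sites and is intact, and from 2 Dnmt1KO samples, in which the same floxed gene is cut by Cre recombinase driven by the LysM promoter. That promoter is active in monocytes, macrophages and neutrophils, so the deletion is not particular to macrophages. The label of the control samples gives their genotype as wt, and no LPS or other stimulus is named for any of the 4 samples. Whether a sample came from 1 mouse or from pooled mice is not stated, so p-values measure only the spread between these samples, which may be technical.

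Macrophages take up modified lipoproteins through scavenger receptors, and this uptake, unlike that of native lipoprotein, is not shut off as cholesterol accumulates. The ingested cholesteryl esters are hydrolysed in lysosomes, and the freed cholesterol is re-esterified, exported or kept in membranes. Foam cells of atherosclerotic lesions form in this way, and Cd36 and Msr1 are the receptors best known for it.

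Total counts per sample ran from 20228071 to 24198943, and the 10 genes together took between 0.545% and 0.730% of them. Levels are given as CPM, counts scaled to library size with edgeR's TMM method. Dnmt1, the deleted gene, was at 86.6 and 67.0 CPM in the Dnmt1fl/fl samples and at 37.0 and 42.7 CPM in the Dnmt1KO samples, a log2 fold change of -0.95 (95% interval -1.54 to -0.35, adjusted p = 1.00, edgeR). The genotypes did not overlap in Dnmt1, and its transcript was still measured in both Dnmt1KO samples. In bulk RNA, fewer cells of a type and less RNA per cell cannot be told apart. Macrophage markers were present throughout, with Csf1r, the receptor for the macrophage growth factor M-CSF, between 1011 and 1126 CPM and the macrophage surface protein gene Adgre1 between 700 and 986 CPM.

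To compare the receptors with each other, CPM was divided by the length of the longest annotated transcript, which gives an FPKM-like level. On this scale Cd68, a heavily glycosylated protein of endosomes and lysosomes, was the highest of the 10, at 1070 ± 197 FPKM (SD, n = 2) in Dnmt1fl/fl and 1277 ± 304 FPKM (SD, n = 2) in Dnmt1KO samples. It ranked between 31 and 41 among the 12372 genes with a length. Cd36, which binds oxidized lipoproteins and imports long-chain fatty acids, was next at 687 ± 163 FPKM (SD, n = 2) and 559 ± 188 FPKM (SD, n = 2), and ranked between 50 and 110. Cd68 and Cd36 together held between 80.1% and 85.3% of the summed level of the 10 genes in each sample, or between 37.4% and 56.9% where the median transcript length was used instead. No sample's Cd36 level reached the lowest Cd68 level, 931 against 802 FPKM.

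Msr1, which encodes the class A receptor SR-A1, followed at 142 ± 32.7 FPKM (SD, n = 2) in Dnmt1fl/fl and 121 ± 43.5 FPKM (SD, n = 2) in Dnmt1KO samples. Lrp1, an endocytic receptor for lipoprotein remnants and protease complexes, was at 92.9 ± 44.0 FPKM (SD, n = 2) and 92.8 ± 40.6 FPKM (SD, n = 2). The order of Msr1 and Lrp1 was not fixed. Their levels overlapped across the 4 samples, and the ratio of Lrp1 to Msr1 was 1.05 in Dnmt1fl/fl replicate 1 and 1.34 in Dnmt1KO replicate 2 but 0.375 in Dnmt1fl/fl replicate 2 and 0.422 in Dnmt1KO replicate 1. Scarb2, the lysosomal membrane protein LIMP-2, came next at a mean of 62.4 FPKM over all samples and overlapped Lrp1. Stab1, a receptor for acetylated lipoproteins and cell debris, was at 30.5 FPKM, Cxcl16, a membrane-bound chemokine that also binds oxidized lipoproteins, at 24.9 FPKM, and Scarb1, the high-density lipoprotein receptor SR-B1, at 23.7 FPKM. These 3 overlapped in turn, Stab1 with Cxcl16 and Cxcl16 with Scarb1. Marco, a bacterial and particle-binding class A receptor, had a mean of 8.29 FPKM, and Olr1, the oxidized lipoprotein receptor LOX-1, one of 2.55 FPKM. On this scale Marco was below Scarb1 and above Olr1 in every sample. By total exon length Marco was above Scarb1 in both Dnmt1fl/fl samples, and by median transcript length Olr1 had the higher mean of the pair, 19.5 against 13.9 FPKM. Dividing by the total exon length also exchanged Msr1 and Lrp1, and dividing by the median length placed Lrp1 first, because the annotation of Lrp1 holds short partial transcripts with a median of 772.5 bases beside its longest one of 14888 bases.

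**Figure D1:**
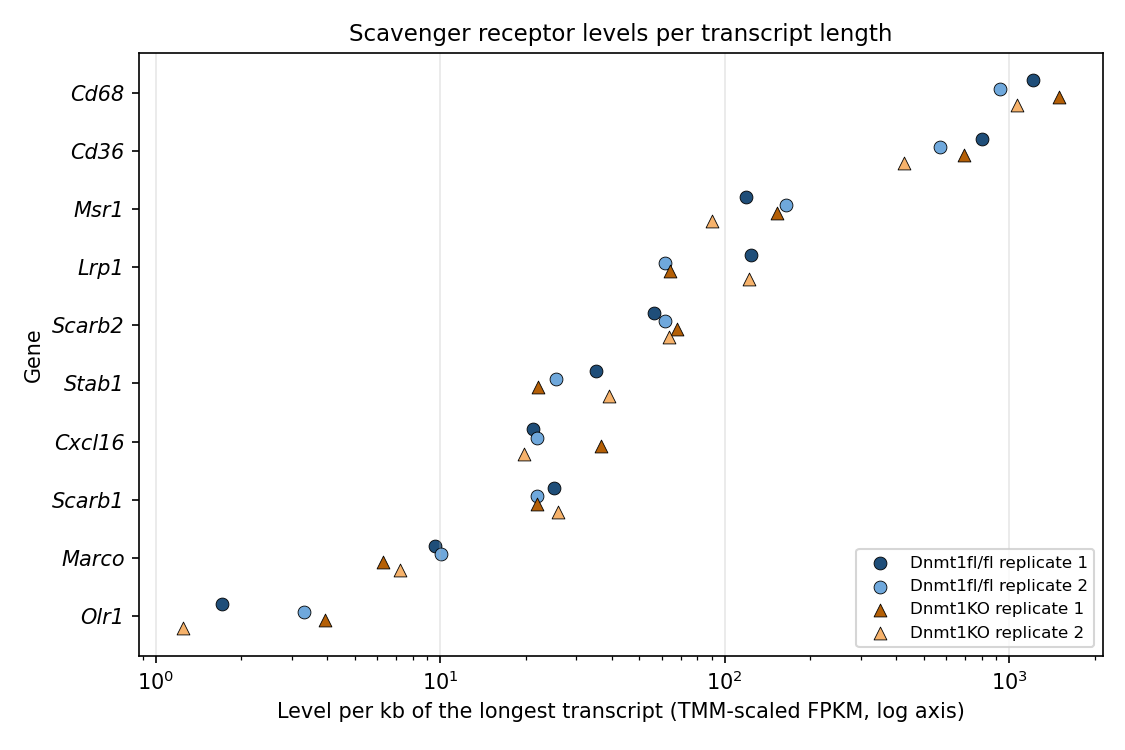
Level of each of the 10 genes per kilobase of its longest transcript, on a log axis, with circles for the 2 Dnmt1fl/fl and triangles for the 2 Dnmt1KO samples. Cd68 and Cd36 lie far to the right, with means of 1173 and 623 FPKM over the 4 samples, and Olr1 lies at the left end between 1.25 and 3.93 FPKM.

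The promoters of these genes differ in how many CpG dinucleotides, the sites that Dnmt1 methylates, they hold. DNA methylation was not measured in these samples. RefSeq promoter windows of 300 bases (250 before and 50 after the start, GRCm38.p6) were at hand for 7 of the 10 genes and not for Msr1, Scarb1 and Cxcl16. The median over 32851 RefSeq promoters was 7 CpG. Marco held 0, Cd36 3, Cd68 4, Olr1 and Stab1 7 each, Lrp1 16 and Scarb2 28 CpG. A window with at most 3 CpG was found in 31.4% of all promoters and one with 0 in 5.43%, while 85.8% of promoters had fewer than Scarb2. The bases before the start are shown for the receptor with the largest difference between genotypes (Marco), for the pair with the highest levels (Cd36 and Cd68) and for a CpG-rich member (Lrp1), each 5′ to 3′ on the minus strand, with CpG dinucleotides in capitals.
Marco, chr1:120505025-120505274: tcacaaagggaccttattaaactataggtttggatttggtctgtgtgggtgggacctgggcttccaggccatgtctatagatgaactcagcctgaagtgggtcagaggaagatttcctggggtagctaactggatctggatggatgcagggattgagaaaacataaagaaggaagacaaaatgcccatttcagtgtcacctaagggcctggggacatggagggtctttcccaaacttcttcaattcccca
Cd36, chr5:17835897-17836146: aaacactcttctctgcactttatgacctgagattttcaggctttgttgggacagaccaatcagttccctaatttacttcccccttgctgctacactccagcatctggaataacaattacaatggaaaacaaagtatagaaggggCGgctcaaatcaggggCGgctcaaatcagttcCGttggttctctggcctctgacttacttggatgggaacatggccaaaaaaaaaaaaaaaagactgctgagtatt
Cd68, chr11:69666171-69666420: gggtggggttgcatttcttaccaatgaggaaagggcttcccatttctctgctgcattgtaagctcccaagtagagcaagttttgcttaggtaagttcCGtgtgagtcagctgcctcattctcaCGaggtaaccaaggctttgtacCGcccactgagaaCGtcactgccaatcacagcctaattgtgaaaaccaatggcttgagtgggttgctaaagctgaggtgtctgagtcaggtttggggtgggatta
Lrp1, chr10:127621149-127621398: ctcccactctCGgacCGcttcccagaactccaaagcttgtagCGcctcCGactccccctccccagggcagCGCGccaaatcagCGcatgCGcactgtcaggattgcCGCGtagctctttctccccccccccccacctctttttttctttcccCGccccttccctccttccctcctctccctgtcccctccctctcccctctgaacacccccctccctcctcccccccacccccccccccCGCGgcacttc
The Marco stretch carries no capital, and those of Lrp1 lie mostly in the part farther from the start. The windows of Cd36 and Scarb2 are at RefSeq starts inside the spans of the annotated genes. The AP-1 motif TGAGTCA, searched on both strands, occurred 2 times in the Cd68 window and once in the Olr1 window, and in 5.20% of all promoters. The PU.1 core GAGGAA was found in the windows of Cd68, Marco, Olr1 and Stab1 and in 28.3% of all promoters, and the nuclear receptor motif AGGTCA in those of Cd36 and Olr1 and in 16.3% of all promoters. These are matches of letters only.

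**Figure D2:**
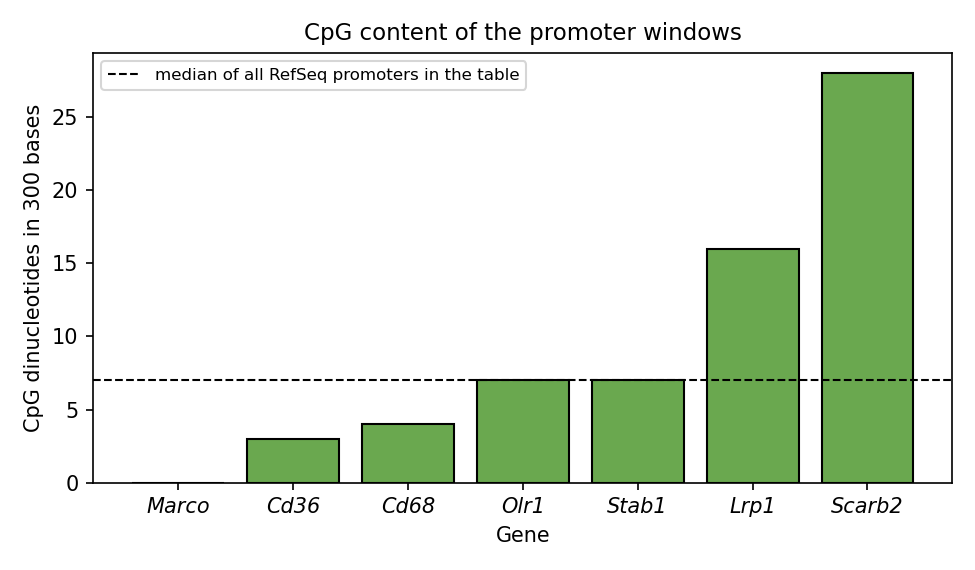
Number of CpG dinucleotides in the 300-base RefSeq promoter window of the 7 genes that had one, with a dashed line at 7, the median of 32851 promoters. Marco has a bar of height 0 and Scarb2 stands highest at 28.

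The comparison of Dnmt1KO with Dnmt1fl/fl macrophages asked how the loss of Dnmt1 relates to receptors for lipid uptake. None of the 10 genes passed edgeR's quasi-likelihood test at an adjusted p under 0.05, with a background of 0% of all genes tested, and 0 had an unadjusted p under 0.05, against 0.279% of all genes (0.112% higher and 0.167% lower in Dnmt1KO). The count of unadjusted p under 0.05 depended on single libraries. Without Dnmt1KO replicate 1 it was 3 of the 10 (Cd36, Msr1 and Olr1) and 352 of all genes, and without Dnmt1KO replicate 2 it was 2 (Marco and Cxcl16) and 3521 of all genes. The smallest unadjusted p was 0.0663, for Marco, whose adjusted p was 1.00 from edgeR, as were those of the other 9. The log2 fold change was above 0 for 6 genes and below 0 for 4, and ran from -0.54 for Marco to 0.39 for Cxcl16. A log2 difference of 0.2 or more in size was reached by 5 of the 10, beside 41.5% of all genes. Of the 5, Cxcl16 and Cd68 were higher in Dnmt1KO, beside 21.8% of all genes, and Marco, Cd36 and Msr1 were lower, beside 19.7%. Which of the 10 reached 0.2 depended on single samples. Without Dnmt1KO replicate 2, Cd36 was at 0.01 and Msr1 at 0.10. Without Dnmt1KO replicate 1, Cd68 was at -0.01 and Cxcl16 at -0.14, while Olr1 was at -1.02 and Lrp1 at 0.39. Over all 4 samples, a size of 0.5 or more was reached by 1 gene, Marco, beside 8.37% of all genes. The median over the 10 genes was 0.01, beside 0.0046 over all genes. With 1 sample left out, the median of the 10 ranged from -0.0746 without Dnmt1KO replicate 1 to 0.11 without Dnmt1fl/fl replicate 1, so its sign was not fixed. The genotypes did not overlap in 2 of the 10, against 16.7% of all genes. Scarb2 was the 1 that was higher in both Dnmt1KO samples (8.14% of all genes) and Marco the 1 that was lower (8.56%). For a single gene, exchanging the labels of 2 against 2 samples in an exact test, two-sided, gives no p below 0.333.

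The intervals show how much these samples leave undecided. All 10 intervals at 95% contained 0, and 6 of the 10 reached a halving or a doubling of the level. The narrowest was that of Scarb2 and the widest that of Olr1. In 8 genes the larger gap between samples of the same genotype exceeded the difference between genotypes, as it did in 91.6% of all genes. The median SD between replicates was 0.43 on the log2 scale for the 10 genes and 0.30 for all genes tested.

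**Figure D3:**
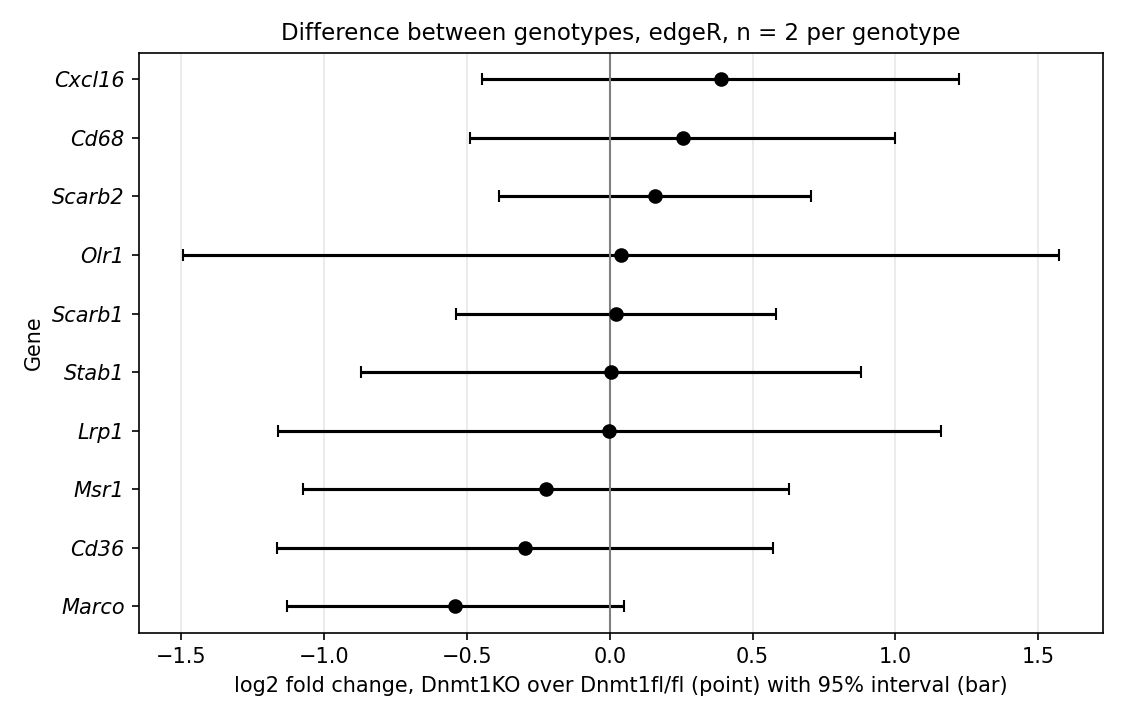
Log2 fold change of each gene in Dnmt1KO over Dnmt1fl/fl macrophages (points) with its 95% interval from edgeR (bars), for 2 samples per genotype. Every bar crosses 0, from Marco at -0.54 to Cxcl16 at 0.39, and the bar of Olr1, from -1.49 to 1.57, is the longest.

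The class A receptors have collagen-like stalks and bind acetylated and oxidized lipoproteins. Marco (chromosome 1, 120474538 to 120505024, GRCm38) was at 18.5 and 19.3 CPM in the Dnmt1fl/fl samples and at 12.1 and 13.9 CPM in the Dnmt1KO samples. Both Dnmt1KO samples were thus below both controls, and the samples of a genotype lay close together. The fold change was 0.688 (95% interval 0.456 to 1.04), or -0.54 ± 0.24 (standard error) on the log2 scale, and in order of p Marco stood at place 60 of the 12542 genes. Its log2 fold change stayed between -0.64 and -0.45 whichever sample was left out. It rests on 240 to 485 counts per sample, and counting error alone gives an exact Poisson interval of 211 to 272 for the lowest of these. Of 8 marker genes of resident large peritoneal macrophages, all were tested and 0 had an adjusted or unadjusted p under 0.05 in edgeR. Timd4, Icam2 and Serpinb2, 3 of the 8, were lower in Dnmt1KO without overlap, beside 8.56% of all genes, while the other 5 overlapped. Of the list, 7 of the 8 were lowest in Dnmt1KO replicate 1, and the list's median log2 fold change was -0.55. Summed, the list was at 487 and 393 CPM in Dnmt1fl/fl and at 156 and 429 CPM in Dnmt1KO samples, and its part in the result for Marco was not tested.

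Msr1 (chromosome 8, 39581685 to 39642673) was at 431 and 599 CPM in Dnmt1fl/fl samples and at 553 and 329 CPM in Dnmt1KO samples. The Dnmt1KO samples held the second highest and the lowest value, so the genotypes overlapped. The fold change was 0.857 (95% interval 0.475 to 1.55). The log2 fold change of Msr1, -0.22 over all samples, was 0.10 without Dnmt1KO replicate 2, -0.65 without Dnmt1KO replicate 1, 0.04 without Dnmt1fl/fl replicate 2 and -0.44 without Dnmt1fl/fl replicate 1. With the length trend removed it was -0.15.

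The class B receptors span the membrane at both ends of the protein. Cd36 (chromosome 5, 17781690 to 17888801) was at 2726 and 1944 CPM in Dnmt1fl/fl and at 2352 and 1450 CPM in Dnmt1KO samples. Each genotype thus had a high and a low sample, and the fold change of 0.814 had an interval from 0.446 to 1.49. The gap between the Dnmt1KO samples, 1.62-fold, was larger than the difference between genotypes. The log2 fold change of Cd36, -0.30 over all samples, was 0.01 without Dnmt1KO replicate 2, -0.69 without Dnmt1KO replicate 1, -0.51 without Dnmt1fl/fl replicate 2 and -0.03 without Dnmt1fl/fl replicate 1. Scarb1 (chromosome 5, 125277087 to 125341094) was at 77.9 and 67.9 CPM in Dnmt1fl/fl and at 67.5 and 80.5 CPM in Dnmt1KO samples. It was among the least variable of the 10, and the highest sample was 1.19 times the lowest. The fold change was 1.02 (95% interval 0.689 to 1.496), and leaving out single samples moved its log2 value between -0.11 without Dnmt1KO replicate 2 and 0.14 without Dnmt1KO replicate 1. Scarb2 (chromosome 5, 92441314 to 92506833) was at 264 and 290 CPM in Dnmt1fl/fl and at 320 and 298 CPM in Dnmt1KO samples. Both Dnmt1KO samples were above both controls by a small amount, 1.12-fold with an interval from 0.765 to 1.63. After removal of the trend with transcript length its log2 fold change was 0.27 in place of 0.16, and with library totals alone as the scale it was 0.08. The genotypes overlapped in Scarb2 under both of these settings. The log2 fold change of Scarb2 was 0.09 without Dnmt1fl/fl replicate 1, 0.23 without Dnmt1fl/fl replicate 2, 0.10 without Dnmt1KO replicate 1 and 0.21 without Dnmt1KO replicate 2.

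Cd68 (class D, chromosome 11, 69664213 to 69666153) was at 1487 and 1145 CPM in Dnmt1fl/fl and at 1835 and 1306 CPM in Dnmt1KO samples. Replicate 1 was the higher sample in both genotypes and the genotypes overlapped, with a fold change of 1.19 (95% interval 0.713 to 1.998). The log2 fold change of Cd68, 0.26 over all samples, was -0.01 without Dnmt1KO replicate 1 and 0.48 without Dnmt1KO replicate 2, 0.46 without Dnmt1fl/fl replicate 1 and 0.08 without Dnmt1fl/fl replicate 2. It was 0.11 with the length trend removed and 0.17 with library totals alone as the scale. Olr1 (class E, chromosome 6, 129485244 to 129507165) was at 6.09 and 11.8 CPM in Dnmt1fl/fl and at 14.0 and 4.45 CPM in Dnmt1KO samples. The Dnmt1KO samples were the highest and the lowest of the 4, a 3.15-fold gap that was the widest among the 10 genes. These values rest on 105 to 297 counts per sample. The genotype fold change was 1.03 with an interval from 0.355 to 2.97, and its sign differed between models. The log2 fold change of Olr1 was -1.02 without Dnmt1KO replicate 1 and 0.64 without Dnmt1KO replicate 2, -0.36 without Dnmt1fl/fl replicate 1 and 0.61 without Dnmt1fl/fl replicate 2.

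Cxcl16 (class G, chromosome 11, 70453983 to 70459984) was at 57.3 and 59.0 CPM in Dnmt1fl/fl and at 99.3 and 53.0 CPM in Dnmt1KO samples. Only Dnmt1KO replicate 1 stood apart, and the other Dnmt1KO sample was below both controls. The fold change was 1.31 (95% interval 0.733 to 2.34). With Dnmt1KO replicate 2 left out, the adjusted p of Cxcl16 was 0.0316 from edgeR, a comparison of 1 Dnmt1KO sample with 2 controls in which 1061 genes passed. With Dnmt1KO replicate 1 left out, the log2 fold change was -0.14. Of the exon bases of Cxcl16, 18.3% overlap exons of Zmynd15 on the opposite strand, and reads of the overlap cannot be told apart without strand, which the sources used here do not give. Stab1 (class H, chromosome 14, 31139013 to 31168641) was at 283 and 204 CPM in Dnmt1fl/fl and at 176 and 313 CPM in Dnmt1KO samples, the Dnmt1KO samples lying outside the controls on both sides. Its fold change was 1.00 (95% interval 0.547 to 1.84), with a log2 value of -0.47 without Dnmt1KO replicate 2 and of 0.36 without Dnmt1KO replicate 1, -0.21 without Dnmt1fl/fl replicate 2 and 0.26 without Dnmt1fl/fl replicate 1. Lrp1 (chromosome 10, 127538161 to 127621148) was at 1847 and 920 CPM in Dnmt1fl/fl and at 954 and 1809 CPM in Dnmt1KO samples. The genotype means were 1383 and 1382 CPM, while the samples within each genotype differed by 2.01-fold and 1.90-fold. The fold change near 1 therefore had a wide interval, from 0.447 to 2.23. The log2 value of Lrp1 was -0.54 without Dnmt1KO replicate 2 and 0.39 without Dnmt1KO replicate 1, -0.42 without Dnmt1fl/fl replicate 2 and 0.59 without Dnmt1fl/fl replicate 1.

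Several receptors followed a split of the samples that crossed the genotypes. Lrp1, Stab1 and Scarb1 were higher in Dnmt1fl/fl replicate 1 and Dnmt1KO replicate 2 than in the other pair. Msr1, Olr1 and Cxcl16 had the opposite order, with Dnmt1fl/fl replicate 2 and Dnmt1KO replicate 1 the higher pair. These 6 of 10 compare with 57.8% of all genes that had one of these orders, so the share was close to the background. Cd36 and Cd68 were higher in both samples numbered 1, as were 12.3% of all genes.

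**Figure D4:**
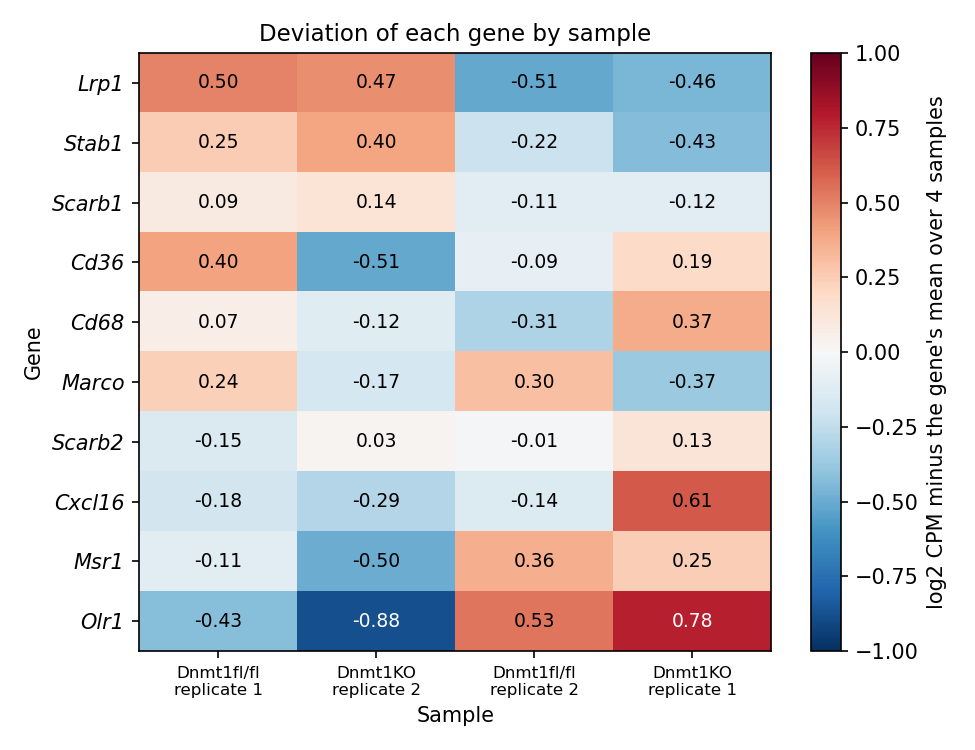
Deviation of each gene in each sample from its own mean over the 4 samples, on the log2 scale of CPM, with the columns ordered to place Dnmt1fl/fl replicate 1 beside Dnmt1KO replicate 2. Lrp1 is at 0.50 and 0.47 in those samples and at -0.51 and -0.46 in the others, and Olr1 has the opposite signs, from -0.88 to 0.78.

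Transcript length and markers of other cell types also differed between the samples. Genes with transcripts of at least 5000 bases had median deviations of 0.16 and 0.17 on the log2 scale in Dnmt1fl/fl replicate 1 and Dnmt1KO replicate 2, of -0.02 in Dnmt1fl/fl replicate 2 and of -0.29 in Dnmt1KO replicate 1. Lrp1 and Stab1, with longest transcripts of 14888 and 7999 bases, are the longest of the 10, and with the length trend removed their log2 fold changes were 0.18 and 0.13 in place of -0.0015 and 0.0049. Of the 10 neutrophil markers 8 were listed and 7 tested, and S100a9, a calcium-binding protein abundant in neutrophils, was at 5.55 and 60.5 CPM in Dnmt1fl/fl and at 320 and 8.35 CPM in Dnmt1KO samples. All 7 were highest in Dnmt1KO replicate 1, but the other samples had no common order, and Retnlg was at 7.89 and 6.22 CPM in Dnmt1fl/fl and at 40.6 and 5.93 CPM in Dnmt1KO samples. The sum of the 7 ran from 228 to 327 CPM in Dnmt1fl/fl and from 225 to 901 CPM in Dnmt1KO samples. Fibroblast markers, 4 of 4 tested, were likewise highest in Dnmt1KO replicate 1, with sums of 35.4 to 52.5 CPM in Dnmt1fl/fl and 22.8 to 106 CPM in Dnmt1KO samples. B cell markers, 5 of 5 tested, were all lowest in that sample, with sums of 122 to 197 CPM and 40.1 to 216 CPM. Monocyte marker sums ran from 851 to 1328 CPM, and those of dendritic, T, mast, mesothelial, endothelial and eosinophil markers were at most 38.4 CPM in any sample. Dnmt1KO replicate 1 was also the sample in which Cxcl16, Olr1, Cd68 and Scarb2 were highest and Marco, Stab1 and Scarb1 lowest. The part of these features in the receptor values was not tested.

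Other genes around these receptors were counted in 4 lists, in which 72 of 77 genes were tested and 0 passed edgeR's adjusted threshold in either direction, with 0 at an unadjusted p under 0.05. The genotypes did not overlap in 16 of the 72, against 16.7% of all genes. Of the 16, 7 were higher and 9 lower in Dnmt1KO, beside 8.14% and 8.56% of all genes. Among other scavenger and lipoprotein receptors, 19 of 22 were tested, and 0 were higher and 2 lower without overlap, beside the same shares. Their median log2 fold change was -0.03. Colec12, a collectin that takes up oxidized lipoproteins, was one of the 2. It was at 15.2 and 13.6 CPM in Dnmt1fl/fl and 12.1 and 13.3 CPM in Dnmt1KO samples. Among partners and signalling proteins of Cd36, all 20 were tested, and 2 were higher and 2 lower without overlap. These compare with 8.14% and 8.56% of all genes, and the median was -0.02. Tlr6, which pairs with Tlr4 and Cd36 in the response to oxidized lipoproteins, was at 35.2 and 29.2 CPM in Dnmt1fl/fl and at 36.2 and 36.1 CPM in Dnmt1KO samples. The kinase gene Mapk9 had a log2 fold change of 0.13, the integrin chain gene Itgb1 one of -0.17 and Vav3, a guanine nucleotide exchange factor, one of -0.14.

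Among 13 tested regulators of 14 listed, 2 were higher and 1 lower without overlap, beside 8.14% and 8.56% of all genes, with a median of 0.08. Srebf1, a driver of fatty acid synthesis, was at 53.6 and 53.8 CPM in Dnmt1fl/fl and at 69.9 and 54.4 CPM in Dnmt1KO samples, so 1 sample carried its difference. Srebf2, which drives cholesterol synthesis, was at 119 and 104 CPM and at 96.1 and 97.4 CPM. Rxra, the partner of PPAR and LXR receptors, had a log2 fold change of 0.05. Pparg, the nuclear receptor that activates Cd36, was singled out after its values were seen, because Cd36 was among the genes compared. It was at 88.4 and 49.99 CPM in Dnmt1fl/fl and at 65.7 and 49.8 CPM in Dnmt1KO samples, so the genotypes overlapped. Among ligands, shedding enzymes and trafficking helpers, 20 of 21 were tested, 3 were higher and 4 lower without overlap, beside 8.14% and 8.56% of all genes, and the median was -0.06. The lysosomal membrane gene Lamp1 had a log2 fold change of 0.17, Lamp2 one of -0.12 and Dab2, an adaptor for receptors of the lipoprotein receptor family, one of -0.19.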

How the data were processed

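The authors sequenced paired-end reads, aligned them with HISAT2 2.0.5 to mm10 and counted them per gene with featureCounts 1.5.0-p3, per the submitters' processing notes. The annotation is not given in the sources used here. The deposited values are estimated counts per gene, not normalized, and between 72.6% and 76.4% of them are whole numbers. Among the 10 genes, those of Cd68, Cxcl16 and Stab1 are not all whole. How reads were shared out is not stated, and no listed value is 0. A shorter deposited table of 2749 rows, all identical to rows among the 13834 genes of the count table, was not tested. It held 4 of the 10 genes, Cd36, Msr1, Marco and Cxcl16. The paper reports a list of nearly this many genes, chosen by the size of their log2 fold change between the genotypes. If the shorter table is that list, its rows were selected by genotype difference in these same samples. Membership would then not be separate evidence of a difference.

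Counts were rounded, filtered with filterByExpr, scaled with TMM (factors 0.910 to 1.04) and tested with edgeR 4.0.16 (R 4.3.3), quasi-likelihood, two-sided, without a block, with Benjamini-Hochberg adjustment over 12542 genes. Intervals come from the quasi-likelihood statistic and its degrees of freedom. The dispersion was 0.0837. Poisson intervals cover counting error only. Gene positions and lengths are from GENCODE M21 (GRCm38), matched by symbol. Code was tested on simulated data. Alternatives were a replicate block, DESeq2 1.42.0, limma-voom (limma 3.58.1), other scalings and filters, a length correction (loess, span 0.5) and leaving out each sample. The correlation of deviations between same-numbered samples was -0.34 across genes. The 10 genes and the lists were chosen with earlier results of these data known. Named from the lists are the 2 largest differences in each direction without overlap. Some genes that this rule names are not reported here.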

Additional observations from a re-analysis of the deposited data

How the results depend on the processing

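The 10 genes gave 110 log2 fold changes over the 11 alternatives that kept all 4 samples, of which 90 kept their direction, with an adjusted p above 0.05, and 20 changed sign, in Lrp1, Olr1, Stab1 and Scarb1. The largest changed value was 0.22 in size, and the cause was not tested. Marco and Scarb2 changed sign in none of the alternatives run, samples left out included. The replicate block (same-numbered samples paired) gave -0.10 for Olr1, -0.0343 for Stab1 and 0.0116 for Lrp1, and it changed no call. Same-numbered samples share only a number here. Because their deviations were opposed, a crossed pairing of the block was added after the data were seen. It called 3 of all genes and 0 of the 10 at an adjusted p under 0.05 in edgeR, with Olr1 at -0.0911, Stab1 at -0.0344 and Lrp1 at 0.0117. The block with length correction, also added then, gave -0.0474 for Olr1 and 0.22 for Lrp1, and the crossed block with it -0.0352 and 0.22. In this last fit 1 of the 10, Marco, was past the unadjusted threshold of 0.05 in edgeR, beside 121 of all genes in place of 35. The median over the 10 was -0.0113 with the block and 0.12 with length correction. DESeq2 called 1 of all genes and gave 0.0046 for Lrp1. Voom gave -0.17 for Olr1, -0.0418 for Stab1 and 0.0019 for Lrp1. RLE scaling gave 0.0046 and no filter 0.0027 for Lrp1. Library totals alone gave -0.0859 for Olr1, -0.0387 for Scarb1 and -0.0358 for Stab1. That scale left 1 of the 10, Marco, without overlap, beside 16.5% of all genes. Length correction gave 0.18 for Lrp1 and also left 1, Marco, without overlap, beside 18.7% of all genes. The genotypes thus overlapped in Scarb2 under both. The number of the 10 past a log2 size of 0.2 was 4 in place of 5 with library totals alone, where Cd68 was at 0.17, and also with length correction, where Cd68 was at 0.11, Msr1 at -0.15 and Scarb2 at 0.27. A limit of 0.5 in place of 0.2 kept 1 of 5 genes.

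With each sample left out in turn, all genes called by edgeR ranged from 0 to 1061, of the 10 from 0 to 1 (Cxcl16), both highest without Dnmt1KO replicate 2, and genes of the 10 without overlap ranged from 4 to 8, beside 40.1% to 82.8% of all genes, since 1 sample overlaps 2 less easily. Log2 fold changes ranged from -0.69 to 0.0112 for Cd36, -0.65 to 0.10 for Msr1, -1.02 to 0.64 for Olr1, -0.11 to 0.14 for Scarb1, -0.0130 to 0.48 for Cd68, -0.14 to 0.77 for Cxcl16, -0.47 to 0.36 for Stab1 and -0.54 to 0.59 for Lrp1, and from 0.09 to 0.23 for Scarb2. A lone sample was assumed to vary like the other genotype. Of the 10, Olr1 and Marco rest on the fewest counts.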
